A study of Mus musculus with 34 samples.

Results

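Irf8 and Irf4, a pair of genes for interferon regulatory factors, are described here with all peaks of the 30 deposited ChIP-seq lists within 150 kb of their start sites. Both genes were taken by name, as 2 of 21938 protein-coding genes (GENCODE vM21). Irf8 (ENSMUSG00000041515.10) lies on the plus strand of mouse chromosome 8 from 120736358 to 120756694, and Irf4 (ENSMUSG00000021356.10) on the plus strand of chromosome 13 from 30749226 to 30766976 (GRCm38, mm10). Each start site is that of the longest transcript. The Irf8 window held 474 peaks and the Irf4 window 764, together 1238 of the 1393623 peaks of the series.

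IRF8 and IRF4 are related transcription factors of the immune system that bind DNA weakly alone and join partners such as PU.1 and BATF proteins on composite sites. IRF8 is known for the differentiation of monocytes and of cDC1, the conventional dendritic cells that cross-present antigen, and IRF4 for cDC2 and for dendritic cells that arise in GM-CSF culture. STAT5 carries the signal of GM-CSF into the nucleus, and p65 (RelA), a subunit of NF-κB, that of Toll-like receptors. CTCF binds a directional DNA motif at many domain borders and halts cohesin, of which SMC1 is a subunit. H3K27ac marks active enhancers and promoters, H3K4me1 enhancers, H3K4me3 promoters, and H3K27me3 chromatin held by Polycomb.

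All cells were bone marrow-derived dendritic cells (BMDCs) from C57BL/6 mice, 8 weeks old per the labels, grown in GM-CSF for 6 days and, per the study's methods, selected with beads for CD11c. The CreER mice gave the CTCF-WT cells and the CreER;CTCF fl/fl mice the CTCF-KO cells, and 4-OH tamoxifen was added on day 1 of culture. Both genotypes thus carried the tamoxifen-inducible Cre, which is driven from the broadly active Rosa26 locus, and cells were CTCF-depleted during differentiation, not after it. Conditions are WT and KO without LPS, and WTLPS and KOLPS after LPS (100 ng/ml, 3 h), a bacterial ligand of Toll-like receptor 4. CTCF, SMC1, p65, H3K27ac, H3K4me3, H3K4me1 and H3K27me3 have a list in each of the 4 conditions, and STAT5 in WT and KO, from cells given GM-CSF again for 15 min. A list is the only value of its antibody and condition, so no difference below could be set against a spread between replicates and none was tested.

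Lists held 504 to 96475 peaks. The background coverage recovered for the narrow-peak libraries was 0.705 to 5.76 fragments per base, and for H3K27ac it was 1.17 (WT), 1.2 (WTLPS), 0.748 (KO) and 0.801 (KOLPS). CTCF lists numbered 60537 peaks in WT and 20151 in KO. Of 10 dendritic and myeloid marker genes such as Itgax, Csf2rb and H2-Ab1, all 10 had an H3K27ac peak at the promoter in each condition, whereas 0 of 4 T cell genes and 0 of 4 B cell genes had one, where 41.8 to 45.6% of all genes did. Of 4 neutrophil granule genes 0 had one in WT and 1 in the other conditions, and of 3 erythroid genes 0 had one in any. By H3K4me3 the lists were less cleanly divided. In each condition it was called at the promoter of 9 of 10 dendritic and myeloid, 2 of 4 B cell and 1 of 3 erythroid genes. It was called at 0 of 4 T cell and 0 of 4 neutrophil genes, where 57.7 to 58.7% of all genes had it. Fold below is the authors' enrichment of a peak over local background, and "weaker" ranks it by −log10 p within its own list. Folds of different lists are set side by side without correction for depth.

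Both promoters carried H3K4me3 in every condition. The Irf8 start site lay inside an H3K4me3 peak of fold 40.3 (WT), 31.6 (WTLPS), 45.0 (KO) and 25.4 (KOLPS), between 5288 and 7354 bp wide. At the Irf4 start site the H3K4me3 peak had folds of 28.7 (WT), 31.1 (WTLPS), 34.5 (KO) and 19.3 (KOLPS), and was 5470 to 6464 bp wide. In both genes KO had the highest and KOLPS the lowest of the 4 values. The neighbouring promoters of Cox4i1 (38.2 and 32) and Dusp22 (25.4 and 9.87) also had KO highest and KOLPS lowest, whereas Gins2 was highest in WT (27.8). By rank within its list the Irf8 peak was lowest in WTLPS, stronger than 81.1%, against 90.4% in KOLPS. Within 2.5 kb of the Irf8 start site H3K27ac reached a fold of 12.9, 11.8, 12.0 and 7.22 in the order WT, WTLPS, KO, KOLPS, and at Irf4 11.0, 14.6, 12.6 and 12.2. Neither promoter held a CTCF or a p65 peak in any list. SMC1 was called at the Irf4 promoter in WT (highest fold 4.68), WTLPS (3.99) and KOLPS (4.37) but not in KO, and at the Irf8 promoter in WT (5.47) and KO (3.47) but in neither LPS list. STAT5 was called at the Irf8 promoter in WT (fold 6.01, stronger than 23.6% of its list) and not in KO, and in neither condition at the Irf4 promoter. H3K27me3 within 2.5 kb was limited to 1 short peak of fold 3.02 in WT and 1 of 2.86 in KO at Irf8, and 1 of 2.85 in WT at Irf4.

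**Figure D1:**
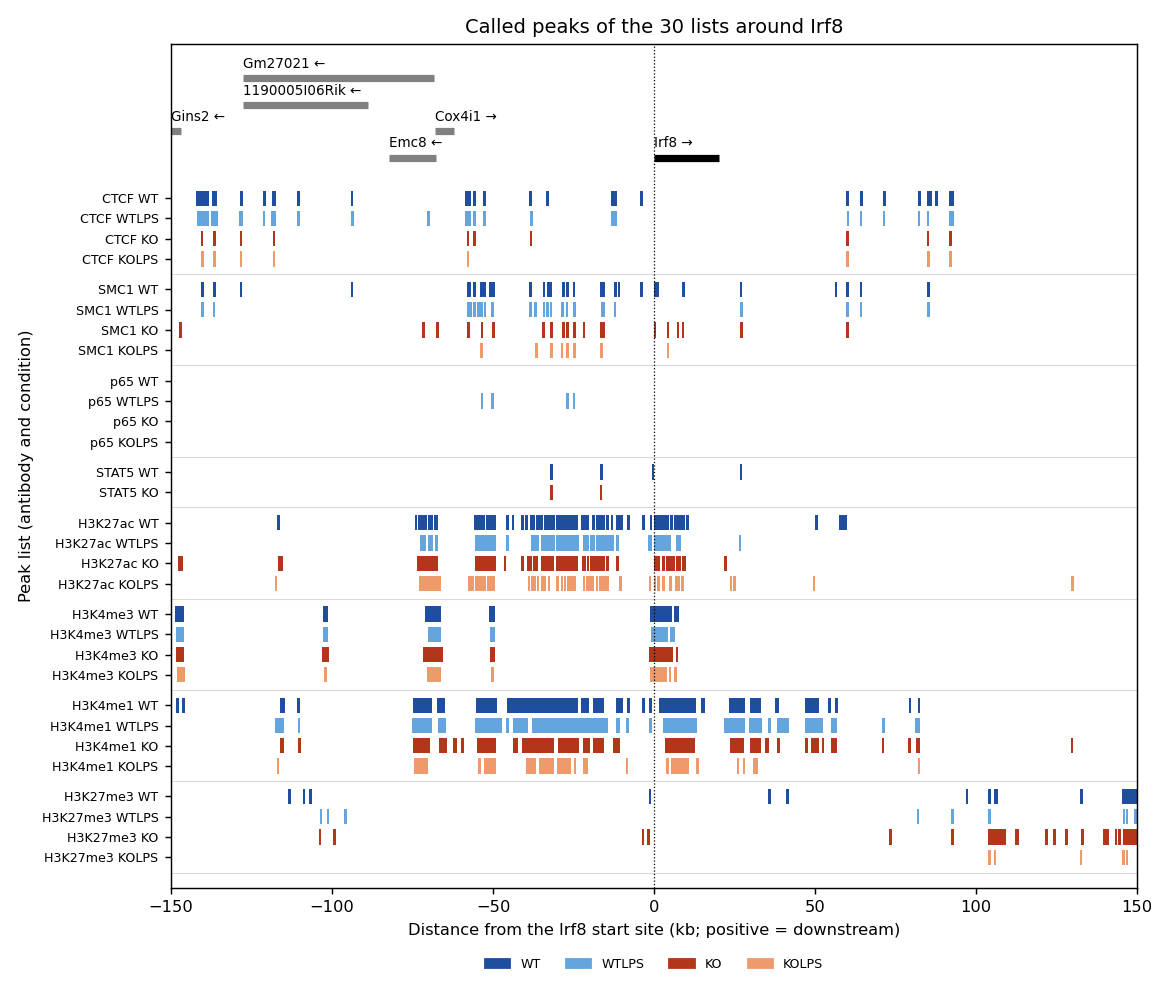
Peaks of the 30 lists (rows) by distance from the Irf8 start site in kb, coloured by condition, with protein-coding genes on top and peaks under 0.8 kb drawn 0.8 kb wide. Acetylated and p65, STAT5 and SMC1 sites lie mostly between the start site and -58 kb, CTCF peaks among them and on both sides, and broad H3K27me3 beyond 100 kb downstream.

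The neighbourhoods differed. Upstream of Irf8 lie Cox4i1 and Emc8, genes of the respiratory chain and of membrane protein insertion, with start sites at -68.1 and -68.2 kb, and downstream no protein-coding gene starts within 150 kb. The read-through model Gm20388 covers the whole Irf8 window and was left out when peaks were assigned to genes. Upstream of Irf4 lies the phosphatase gene Dusp22 (start site -89.2 kb), and downstream the 3′ end of Exoc2, a subunit of the exocyst, whose own start site is at 224.8 kb.

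**Figure D2:**
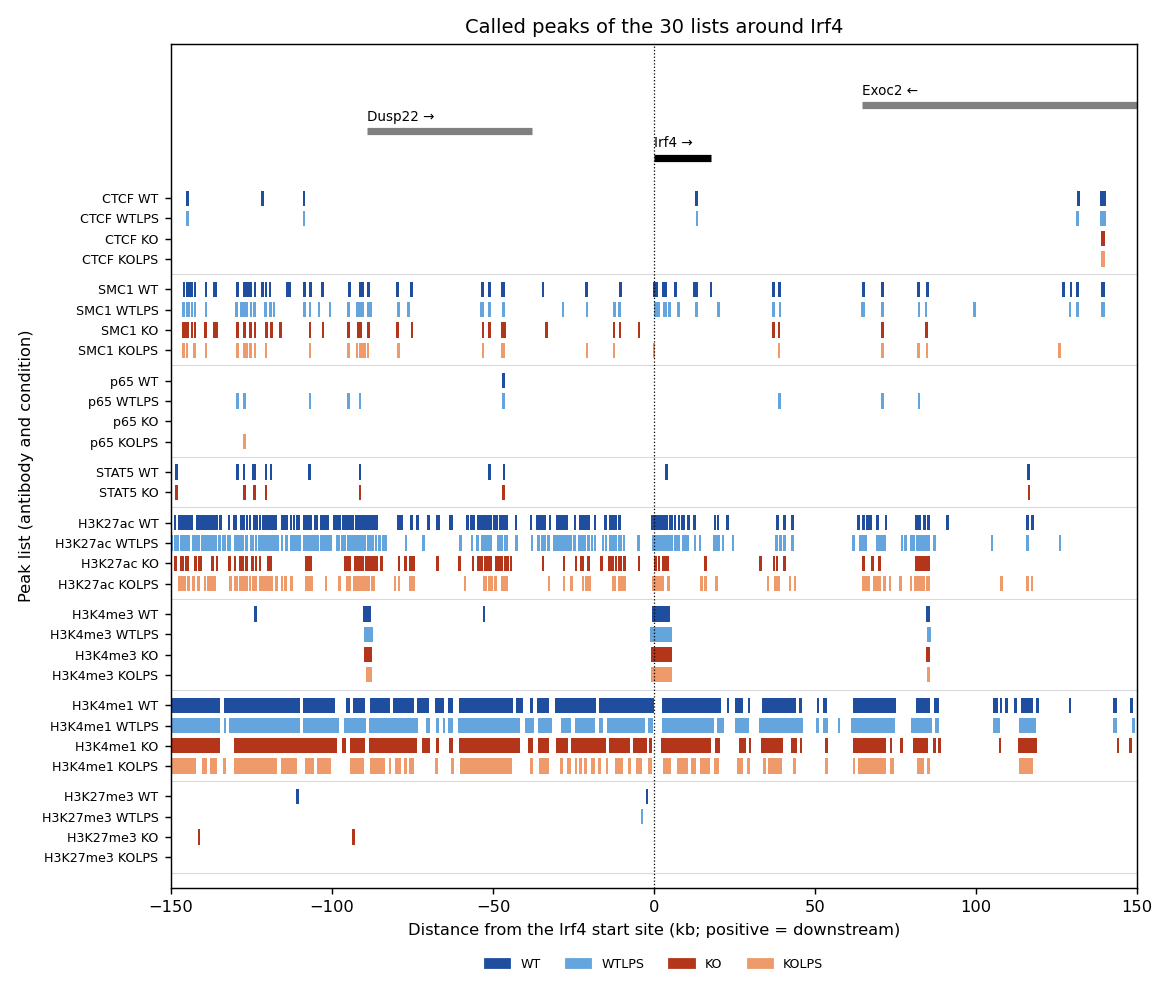
Peaks of the 30 lists (rows) by distance from the Irf4 start site in kb, drawn as for Irf8. H3K27ac, H3K4me1 and SMC1 peaks are spread over the upstream 150 kb in all conditions, with gaps. CTCF peaks are few and 1 of them, at 139.5 kb, is called in each condition.

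Irf4 stood in a densely marked region and Irf8 in a moderately marked one. H3K27ac gave 103 (WT), 110 (WTLPS), 81 (KO) and 106 (KOLPS) peaks at Irf4, where the median protein-coding gene had 11 to 13, and 99.9%, 99.9%, 98.8% and 99.6% of genes had fewer. At Irf8 the H3K27ac counts were 36, 24, 55 and 55, and 76.9 to 94.6% of genes had fewer. SMC1 gave 47, 44, 32 and 28 peaks at Irf4, and at least 99.3% of genes had fewer in each condition. At Irf8 SMC1 gave 29, 22, 20 and 8, and 91.2%, 84.6%, 94.7% and 84.3% of genes had fewer. CTCF showed the opposite order. It gave 22, 19, 10 and 8 peaks at Irf8, which 75.8 to 96.3% of genes fell short of, and only 6, 5, 1 and 1 at Irf4, fewer than at the median gene, which had 13, 12, 4 and 2. H3K27me3 was near absent at Irf4 with 2, 1, 2 and 0 peaks, against 11, 9, 16 and 5 at Irf8.

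**Figure D3:**
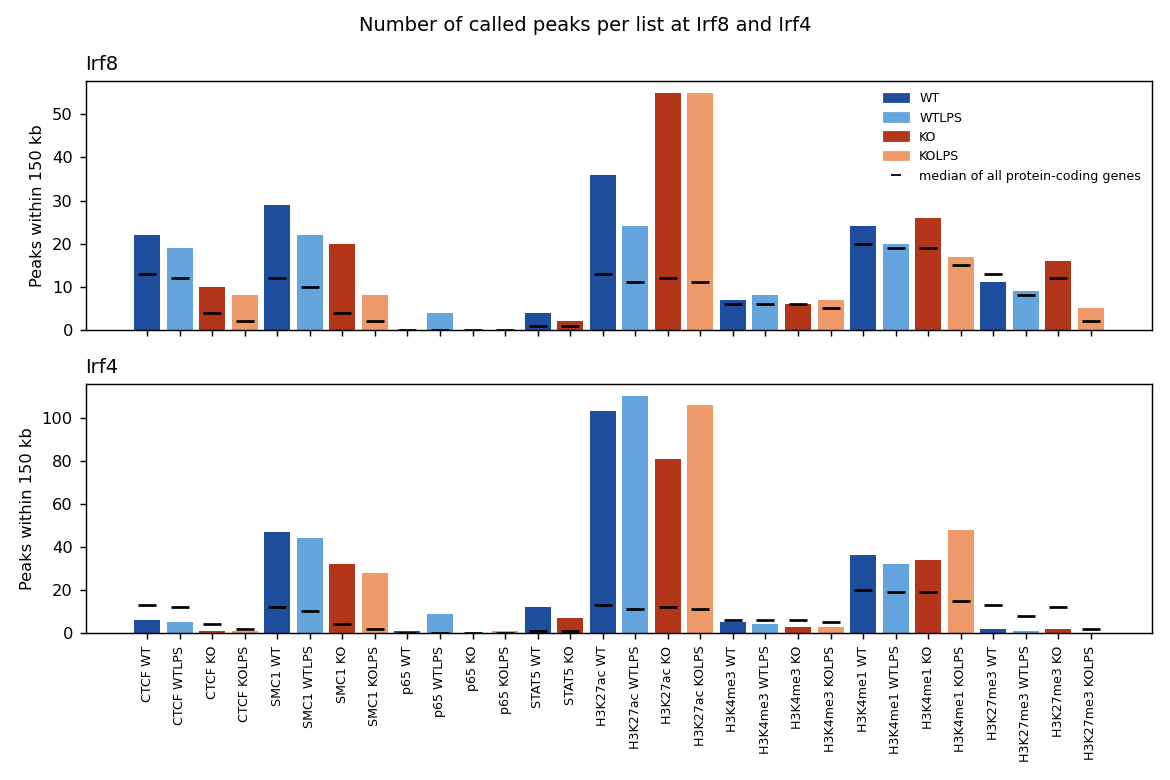
Number of called peaks within 150 kb of Irf8 (top) and Irf4 (bottom) in each list, with black ticks for the median of 21938 protein-coding genes. Irf4 lies far above the tick for H3K27ac and SMC1 and below it for CTCF and H3K27me3, and Irf8 lies above it for CTCF.

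STAT5 and p65, the factors of the GM-CSF and LPS signals, had more sites at Irf4 than at Irf8. At Irf4 the STAT5 list held 12 peaks in WT and 7 in KO, and 99.7% and 98.5% of genes had fewer. At Irf8 it held 4 in WT and 2 in KO, where 86.6% and 71.7% had fewer. p65 gave 9 peaks in WTLPS at Irf4, 1 each in WT and KOLPS and 0 in KO, and at Irf8 4 in WTLPS and 0 elsewhere. For the 9 peaks in WTLPS, 99.4% of genes had fewer, and for the 4 at Irf8 92%. The p65 lists themselves held 781, 5465, 504 and 1752 peaks, so the counts in the other 3 conditions come from much shorter lists. Joined over conditions, the p65 and STAT5 peaks made 16 sites at Irf4 and 8 at Irf8.

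The strongest of them was an Irf4 site at -46.7 kb, in an intron of Dusp22 (chromosome 13, 30702070 to 30702954). STAT5 had a fold of 30.1 there in WT and 27 in KO, stronger than 96.3% and 96.8% of the peaks of those lists. It was also the single p65 site of the Irf4 window called without LPS, with a fold of 7.01 in WT and 10.2 in WTLPS, and no p65 peak was called there in KO or KOLPS. SMC1 was called there in all 4 conditions (folds 10.9, 10.2, 8.99 and 6.19 in WT, WTLPS, KO and KOLPS), as was H3K27ac (14.7, 8.65, 13.2 and 11.1), and the summits of p65 in WTLPS and STAT5 in WT were 64 bp apart. The most strongly p65-bound site of the Irf4 window lay at -127.3 kb, in an intron of the lincRNA gene 4930519D14Rik. Its p65 fold was 16.7 in WTLPS and 8.26 in KOLPS, the single p65 peak of either locus that KOLPS shared. STAT5 was called at that site with a fold of 7.30 in WT and 4.81 in KO.

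Letters are shown for the strongest STAT5 and p65 summits of Irf4, for the sites with both factors at -46.7 and -91.4 kb and for the STAT5 site inside the gene. Each stretch is the plus strand of GRCm38 within 50 bp of the summit of the named list, read from RefSeq's genome. Capitals mark a GAS motif (the STAT recognition sequence TTCNNNGAA, which reads the same on both strands), the same motif with a 4-base spacer, or a κB motif with at most 1 mismatch to the 10-letter NF-κB consensus on either strand.
Irf4 STAT5 summit at -46.7 kb, chr13:30702455-30702555: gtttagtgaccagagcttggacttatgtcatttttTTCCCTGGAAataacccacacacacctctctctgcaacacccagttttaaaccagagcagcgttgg
Irf4 STAT5 summit at 116.4 kb, chr13:30865609-30865709: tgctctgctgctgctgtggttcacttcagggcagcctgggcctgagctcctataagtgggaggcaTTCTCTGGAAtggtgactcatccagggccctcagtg
Irf4 STAT5 summit at 3.9 kb, chr13:30753033-30753133: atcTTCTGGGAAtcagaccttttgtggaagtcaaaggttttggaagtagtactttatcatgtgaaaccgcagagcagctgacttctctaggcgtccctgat
Irf4 p65 summit at -46.8 kb, chr13:30702391-30702491: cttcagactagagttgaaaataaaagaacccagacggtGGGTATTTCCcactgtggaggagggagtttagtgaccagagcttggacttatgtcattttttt
Irf4 p65 summit at -127.3 kb, chr13:30621867-30621967: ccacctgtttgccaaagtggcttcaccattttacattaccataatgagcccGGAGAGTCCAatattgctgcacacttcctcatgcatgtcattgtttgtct
Irf4 p65 summit at -91.4 kb, chr13:30657817-30657917: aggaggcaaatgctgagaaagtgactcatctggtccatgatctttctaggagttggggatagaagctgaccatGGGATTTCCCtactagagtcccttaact
The first 2 sites carry the form with the 4-base spacer and the third, in an Irf4 intron, the GAS motif itself. Among all WT STAT5 peaks, 37.9% held the GAS motif and 7.76% the form with the longer spacer, which was looked for after its letters were seen at -46.7 kb. Of the 12 WT STAT5 peaks at Irf4, 4 held the first and 3 the second, the latter at -123.9, -46.7 and 116.4 kb. Among the 7 KO STAT5 peaks at Irf4, 0 held the GAS motif and 2 the longer form, against 37.9% and 7.14% of that list. Within 100 bp of the summit the GAS motif lay at 7 of 12 WT and 3 of 7 KO peaks, against 55.1% and 55.5%, and the longer form at 3 of 12 and 4 of 7, against 12.7% and 12.3%. An exact κB motif lay at 2 of the 9 WTLPS p65 peaks of Irf4, at -95.0 and -91.4 kb, against 11.9% of that list. With 1 mismatch, a choice made after the data were seen, it lay at 5 of 9, against 36.9%.

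The other Irf4 sites fell into 3 groups by position. A far upstream group between -148.3 and -91.4 kb held 9 sites. STAT5 alone was called at -148.3 kb (WT 7.30, KO 6.66), -123.9 kb (10.7, 9.24), -120.5 kb (12.9, 9.98) and -118.9 kb (WT only, 6.87). p65 in WTLPS joined STAT5 at -129.3 kb (p65 5.39, STAT5 in WT 4.72), -107.1 kb (4.31 and 4.72), -127.3 kb, given above, and -91.4 kb, in the promoter window of Dusp22 (2.5 kb to either side of a start site). At -91.4 kb p65 had a fold of 8.08 and STAT5 7.30 in WT and 7.77 in KO, with summits 23 bp apart. At -95.0 kb p65 was called alone, with a fold of 3.77.

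A near group held -51.1 kb (STAT5 in WT only, 6.01), -46.7 kb and 3.9 kb. The last lies in an intron of Irf4 under its wide H3K4me3 peak and had STAT5 in WT only, with a fold of 7.30. A downstream group held p65 at 38.8 kb (5.39), 70.9 kb (11.3) and 82.3 kb (8.62), all in WTLPS only, and STAT5 at 116.4 kb (WT 18, KO 13.3), the last 3 in introns of Exoc2. Both factors were called at 5 of the 11 sites upstream of the gene and at none of the 5 others. SMC1 was called at 14 of the 16 Irf4 sites, and at 10 of them in all 4 conditions. The exceptions, -148.3 and 116.4 kb, were STAT5 sites kept in KO. H3K4me1 lay at all 16 sites in WT and WTLPS.

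At Irf8 the p65 and STAT5 sites did not coincide. The 4 p65 peaks, all in WTLPS only, lay at -53.4 kb (fold 6.47), -50 kb (5.39), -26.9 kb (7.01) and -24.8 kb (5.93). The strongest was stronger than 43.5% of its list, so all 4 ranked below the median. STAT5 lay at -31.9 kb (WT 8.16, KO 6.29), -16.3 kb (WT 10.7, KO 5.55), -0.3 kb (WT only, 6.01) and 27.1 kb (WT only, 8.16). The nearest pair of p65 and STAT5 summits was 5.0 kb apart. SMC1 was called at 7 of the 8 sites in WT and in KO, the exception being the promoter. At -26.9 kb SMC1 had folds of 9.53 (WT), 11.8 (WTLPS), 7.42 (KO) and 8.55 (KOLPS). The H3K27ac peaks over that p65 peak had 13.8, 17.3 and 4.58 in WT, WTLPS and KO, and none was called in KOLPS. These are unlike peaks, 6721 and 7368 bp wide in WT and WTLPS and 278 bp in KO. Stronger H3K27ac peaks ended just short of the p65 peak in KO (8.01, at -27.6 kb) and KOLPS (6.11, at -28.0 kb). H3K27ac lay at 7 of the 8 sites in WT, the STAT5 site at 27.1 kb being without it in every list.

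The letters at the strongest STAT5 and p65 summits of Irf8 are given for comparison with those of Irf4.
Irf8 STAT5 summit at -16.3 kb, chr8:120720038-120720138: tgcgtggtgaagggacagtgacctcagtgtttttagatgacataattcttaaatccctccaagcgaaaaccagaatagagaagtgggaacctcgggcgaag
Irf8 STAT5 summit at -31.9 kb, chr8:120704423-120704523: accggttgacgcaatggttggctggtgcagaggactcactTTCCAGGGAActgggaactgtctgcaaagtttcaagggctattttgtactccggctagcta
Irf8 p65 summit at -26.9 kb, chr8:120709391-120709491: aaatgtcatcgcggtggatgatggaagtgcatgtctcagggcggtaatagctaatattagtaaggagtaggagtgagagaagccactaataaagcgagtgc
None of the 4 WT STAT5 peaks at Irf8 held the GAS motif within 50 bp of the summit, and 1, at -31.9 kb, held the form with the 4-base spacer. None of the 4 p65 peaks held a κB motif, exact or with 1 mismatch, within 50 bp, and 2 of 4 held one with 1 mismatch within 100 bp, against 54.7% of the list. These say only that the letters are not in those windows.

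No CTCF peak of any condition overlapped any of the 24 p65 and STAT5 sites of the loci. In the whole lists, 9.55% of WT STAT5 peaks and 6.33% of WTLPS p65 peaks were overlapped by a CTCF peak of the same condition, so this is near the background. SMC1 overlapped 3 of 4 WT STAT5 peaks at Irf8 and 10 of 12 at Irf4, against 58.4% of the list. In WTLPS it overlapped all 4 p65 peaks of Irf8 and all 9 of Irf4, against 88% of the list.

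**Figure D4:**
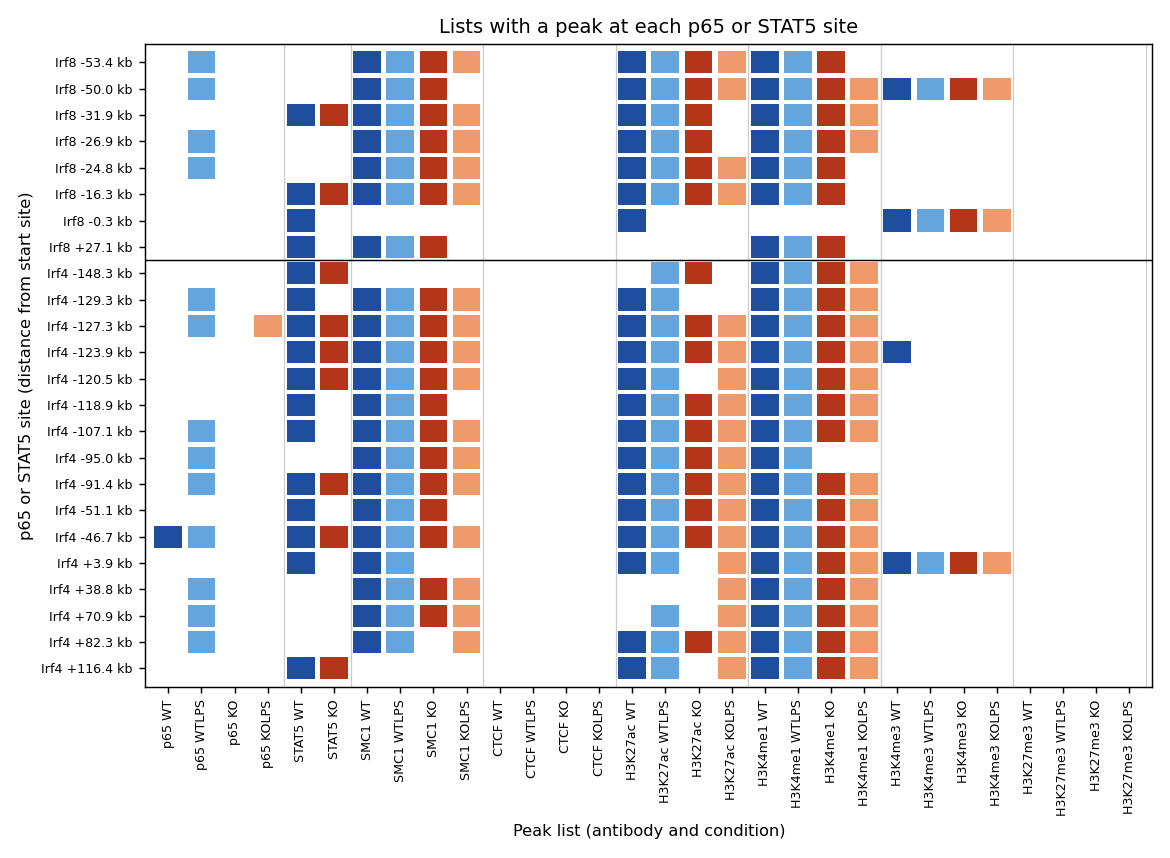
Lists (columns) with a called peak at each p65 or STAT5 site (rows, by distance from the start site in kb), filled squares coloured by condition. The CTCF and H3K27me3 columns are empty at all 24 sites, SMC1 and H3K4me1 fill most of them, and p65 is called almost only in WTLPS.

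Between genotypes, 7 of the 12 WT STAT5 peaks at Irf4 were overlapped by a KO peak, which is 58.3% (95% Wilson interval 32 to 80.7%, counting error only, as for all intervals here), against 64.8% in the whole list. At Irf8 it was 2 of 4. Of the WTLPS p65 peaks, 1 of 9 at Irf4 and 0 of 4 at Irf8 were overlapped in KOLPS, against 22.7%, and 1 of 9 and 0 of 4 in WT, against 13.3%. The single WT p65 peak at Irf4 was not overlapped in KO, where 43.1% of the list was. All of these intervals included the share of the whole list. The WT STAT5 peaks without a KO peak were not the strongest, with folds of 4.72 to 8.16 at both loci.

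CTCF peaks framed Irf8. In WT the 5 of highest fold were at -57.8 kb (20.7), -136.6 kb (19.2), 85.2 kb (17.1), -52.6 kb (17.1) and -55.8 kb (16.9), and their folds in WTLPS were 15.4, 17.3, 12.0, 11.0 and 14.8. The remaining WT peaks lay at -141.5, -128.3, -121.0, -118.2, -110.6, -93.8, -38.3, -33.0, -12.0 and -4.0 kb upstream and at 60.1, 64.3, 71.5, 82.3, 85.9, 87.9 and 92.2 kb downstream. No CTCF peak was called over the Irf8 gene or between it and 60.1 kb. A cluster of 3 strong sites between -57.8 and -52.6 kb thus stood beside the acetylated and p65-bound sites at -53.4 and -50 kb. At Irf4 the CTCF peaks of WT were at 139.5 kb (28.5, stronger than 95.4% of the list), -145.0 kb (9.92), 13.3 kb (8.23, in an Irf4 intron), -108.7 kb (7.81), -121.7 kb (5.49) and 131.7 kb (3.80).

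Some CTCF sites were still called after depletion. At Irf8 10 of the 22 WT peaks were overlapped by a KO peak, 45.5% (26.9 to 65.3%) against 23.7% of the whole list, and 8 of 19 WTLPS peaks by a KOLPS peak, 42.1% (23.1 to 63.7%) against 17.5%. Both intervals lay above the whole list's share. When 50% of a peak had to lie under 1 partner peak, 1 of 22 and 0 of 19 were left, 4.55% and 0%, against 5.64% and 2.91% of the whole lists, so Irf8 was above the list under the looser overlap only. The 8 sites called in every condition were at -141.5, -136.6, -128.3, -118.2, -57.8, 60.1, 85.2 and 92.2 kb. The highest KO folds were 9.95 at -136.6 kb and 8.83 at 60.1 kb, beside 19.2 and 15.3 in WT. The sites at -52.6 and 64.3 kb, with folds of 17.1 and 13.6 in WT, had no peak in KO or KOLPS. At Irf4 only the 139.5 kb site was kept, with a fold of 28.5, 24.3, 9.37 and 5.76 in that order of conditions, which is 1 of 6 WT peaks, 16.7% (3.01 to 56.4%), and 1 of 5 WTLPS peaks. Within CTCF-WT cells, 18 of 19 WTLPS peaks at Irf8 and 5 of 5 at Irf4 were overlapped in WT, against 89.5% of the list.

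Sequences of CTCF sites called in all 4 conditions are set beside that of the -55.8 kb site, which lacked a peak in KOLPS and had one stronger than 0.0199% of its list in KO. Capitals mark a match to the 12-letter CTCF core with at most 1 mismatch on either strand.
Irf4 CTCF summit at 139.5 kb, chr13:30888627-30888727: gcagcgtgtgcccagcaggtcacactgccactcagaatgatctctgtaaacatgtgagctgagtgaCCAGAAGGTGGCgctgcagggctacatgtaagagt
Irf8 CTCF summit at -57.8 kb, chr8:120678542-120678642: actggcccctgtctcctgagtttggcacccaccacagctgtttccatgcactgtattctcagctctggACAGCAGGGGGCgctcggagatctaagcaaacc
Irf8 CTCF summit at 60.1 kb, chr8:120796410-120796510: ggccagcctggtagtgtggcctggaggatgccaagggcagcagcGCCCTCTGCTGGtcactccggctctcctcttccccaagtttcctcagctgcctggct
Irf8 CTCF summit at 85.2 kb, chr8:120821519-120821619: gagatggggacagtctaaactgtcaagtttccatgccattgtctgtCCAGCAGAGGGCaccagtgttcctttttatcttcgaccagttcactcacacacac
Irf8 CTCF summit at -55.8 kb, chr8:120680516-120680616: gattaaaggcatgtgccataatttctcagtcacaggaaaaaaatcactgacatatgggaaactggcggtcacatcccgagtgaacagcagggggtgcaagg
The core lay at 10 of the 22 WT summits of Irf8 and 4 of the 6 of Irf4, against 35.6% of WT peaks in the whole list, and at 6 of the 10 KO summits of Irf8, against 31% of that list. At WT summits upstream of Irf8 it matched the plus strand, which points toward the gene, at -57.8, -52.6, -38.3 and -33.0 kb. It matched the minus strand at -136.6, -93.8 and -12.1 kb, so the upstream match nearest to Irf8 pointed away from it. Downstream it matched the minus strand at 60.1 and 71.5 kb, pointing toward the gene. At 85.2 kb it was on the plus strand. No core lay within 50 bp of the -55.8 kb summit. The sequences shown do not stand for all sites. The WT summits at -141.5, -128.3, -118.2 and 92.2 kb, sites called in every condition, also had no core within 50 bp. This depends on the summit used. At the -128.3 kb site a core lay within 50 bp of the WTLPS, KO and KOLPS summits, and at the -118.2 kb site of the WTLPS summit. The WT summit at -52.6 kb, without a peak in KO or KOLPS, had one.

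SMC1 divided by whether CTCF was beside it. Of the 29 WT SMC1 peaks at Irf8, 14 overlapped a WT CTCF peak, and 2 of these 14 were overlapped by a KO SMC1 peak, against 12 of the 15 without CTCF. At Irf4 6 of 47 overlapped CTCF, 1 of which was kept in KO, and 26 of the 41 without CTCF were kept. In the whole list 16.3% of WT SMC1 peaks with CTCF and 55.7% of those without were kept, so the order at both loci was that of the list. Taking all SMC1 peaks, 14 of 29 at Irf8, 48.3% (31.4 to 65.6%), and 27 of 47 at Irf4, 57.4% (43.3 to 70.5%), were overlapped in KO, against 34.5% of the list. After LPS it was 7 of 22 at Irf8, 31.8% (16.4 to 52.7%), and 23 of 44 at Irf4, 52.3% (37.9 to 66.2%), against 23.3%. Of these 4 intervals, both of Irf4 lay above the whole list's share and both of Irf8 included it. With 50% of a peak to be covered, 18 of 47 and 13 of 44 were left at Irf4, 38.3% and 29.5%, against 26.3% and 13.9% of the lists. Among peaks at or above the median of each list, 3 of 14 were kept at Irf8, 21.4%, against 32.2%.

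The strongest WT SMC1 peaks of Irf8 were at -55.7 kb (fold 20.5), 60.1 kb (19.3), -57.7 kb (13.0), -52.5 kb (10.3) and -16.3 kb (9.68). The first 4 lay on CTCF sites, and in KO they had no peak at -55.7 and -52.5 kb and folds of 3.69 at 60.1 kb and 3.79 at -57.7 kb. The -16.3 kb peak, on a STAT5 site, had 7.10 in KO and 5.28 in KOLPS. At Irf4 the strongest were at -145.0 kb (15.1), 139.5 kb (14.2), -46.9 kb (10.9), -106.8 kb (10.5) and -129.3 kb (9.37). The 139.5 kb peak, at the CTCF site called in every condition, was absent in KO and KOLPS. The -145.0 kb peak, whose CTCF peak was called in WT and WTLPS only, had a fold of 5.21 in KO and 5.46 in KOLPS. The -129.3 kb peak, on a p65 and STAT5 site, had 8.39 in KO and 11.3 in KOLPS. Of the SMC1 sites of Irf4 joined over conditions, 19 of 58 were called in all 4 conditions, and 6 of 36 at Irf8. For joined SMC1 sites of the whole lists this share was not computed, so the counts of joined sites have no background here. Between WTLPS and WT, 20 of 22 peaks at Irf8 and 34 of 44 at Irf4 were shared, against 81.9%.

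Joined into sites, the WT SMC1 peaks of Irf8 lay at 28 places. The 6 shared by KO and KOLPS were at -53.5, -31.9, -28.6, -26.9, -24.7 and -16.3 kb, all upstream and 5 of them overlapping a p65 or STAT5 site. KO alone shared 7, at -57.7, -50.1, -34.1, 0.4, 9.1, 27.1 and 60.1 kb. The 15 shared by neither were at -140.2, -136.7, -128.2, -93.8, -55.7, -52.5, -38.3, -33, -12.1, -10.8, -3.8, 1.1, 56.5, 64.3 and 85.3 kb.

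The WT SMC1 peaks of Irf4 lay at 45 places. KO and KOLPS shared 19, of which 16 were upstream, at -146.2, -145, -142.6, -139.2, -129.3, -127.2, -125.6, -123.9, -120.5, -106.8, -95, -91.4, -88.9, -79.6, -53.1 and -46.9 kb, and 3 downstream, at 39, 70.9 and 84.6 kb. KO alone shared 8, at -143.6, -136.7, -119, -102.8, -75.2, -51.1, -10.5 and 37.1 kb, and KOLPS alone 3, at -20.8, 0.8 and 82.3 kb. The 15 shared by neither included all 5 within the Irf4 gene or at its end beyond the promoter (2.9, 6.9, 12.4, 13.2 and 17.8 kb) and lay elsewhere at -121.6, -113.7, -113.2, -108.7, -34.4, 65.2, 127.3, 129.4, 131.7 and 139.5 kb.

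Some SMC1 peaks at Irf8 had no counterpart in CTCF-WT cells. KO alone had them at -147.2 kb (3.47, at Gins2), -71.7 kb (4.42), -67.4 kb (6.31, at Cox4i1), -21.8 kb (3.63) and 7.5 kb (3.63), and KO and KOLPS at 4.4 kb (4.05 and 4.06), the last 2 in exons of Irf8. In that order they were stronger than 0.42%, 52.6%, 85.5%, 12.3%, 12.3% and 46.4% of the KO list. The share of KO SMC1 peaks without a peak in CTCF-WT cells was not computed for the whole list.

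H3K27ac at Irf8 was highest between the start site and -54 kb and at Cox4i1. The highest folds in WT were 18.9 at -50.8 kb, 18.9 at -16.7 kb, 13.8 at -27.6 kb, 12.9 at 0.5 kb and 12.4 at -53.3 kb. In WTLPS the first was -27.5 kb (17.3), then -21.7 kb (16.4), -16.7 kb (14.1), -32.4 kb (13.7) and -54.1 kb (12.7). In KO -50.8 kb led with 24.6, ahead of the Cox4i1 promoter at -67.4 kb (16.6), -53.4 kb (14.3), the Irf8 promoter (12.0) and -15.7 kb (10.9). In KOLPS the order was -50.7 kb (12.8), -54.1 kb (12.2), -67.5 kb (10), -28.3 kb (8.89) and -24.6 kb (8.89). The stretch near -50.8 kb was thus among the 5 highest in WT, KO and KOLPS. The KOLPS peaks at -28.3 and -24.6 kb lay inside the wide WT peak at -27.6 kb, and the KO peak at -15.7 kb inside the WT peak at -16.7 kb.

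The H3K27ac peaks of CTCF-KO cells were more numerous at Irf8 and covered less at both loci. At Irf8 36 peaks covered 47.2 kb in WT and 55 covered 32.2 kb in KO, and with LPS 24 covered 39.4 kb in WTLPS and 55 covered 21.4 kb in KOLPS. At Irf4 the covered length was 82.9, 96.7, 35.8 and 38.5 kb in the same order. The median width over the whole lists was 369, 392, 271 and 242 bp, and the H3K27ac libraries of CTCF-KO cells had the lower coverage given above. The part of depth in these covered lengths was not tested.

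Of WT H3K27ac peaks, 20 of 36 at Irf8, 55.6% (39.6 to 70.5%), and 43 of 103 at Irf4, 41.7% (32.7 to 51.4%), were overlapped in KO, against 47.2% of the list. With LPS, 18 of 24 WTLPS peaks at Irf8 were overlapped in KOLPS, 75% (55.1 to 88.0%), against 41.2%, and 46 of 110 at Irf4, 41.8% (33.0 to 51.2%). When 50% of a peak had to be covered, 10 of 36 and 13 of 103 were left without LPS, 27.8% and 12.6%, against 25.2% of the list, and 4 of 24 and 10 of 110 with it, 16.7% and 9.09%, against 16.2%. Between WTLPS and WT, 23 of 24 at Irf8, 95.8% (79.8 to 99.3%), and 75 of 110 at Irf4, 68.2% (59.0 to 76.1%), were shared, against 57.3%. Both lay above the list. Irf4 thus had 35 acetylated WTLPS peaks without a WT peak and Irf8 had 1.

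At Irf4 the leading H3K27ac peaks in WT were at -47.2 kb (14.7), -91.8 kb (14.3), the promoter (11.0), -51.4 kb (9.85) and -144.7 kb (9.66). In WTLPS they were at -88.6 kb (20.5, at the Dusp22 promoter), 2.5 kb (14.6), -91.6 kb (14.1), 81.8 kb (11.2) and -128.3 kb (10.5), of which the last 3 overlap p65 sites. In KO the order was -88.5 kb (15.4), -47.1 kb (13.2), the promoter (12.6), -91.7 kb (10.3) and -137.3 kb (8.58), and in KOLPS the promoter (12.2), -88.5 kb (11.1), -47.2 kb (11.1), -87.6 kb (10) and -129.7 kb (8.33). The Irf4 promoter was among the 5 highest in all 4 conditions, and the -47 kb site in all but WTLPS, where its fold was 8.65.

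Of the acetylated sites, promoters included, 28 of 46 at Irf8 and 60 of 135 at Irf4 were called in 1 condition alone. The same share was not computed over the whole lists. Those outside promoters that ranked above the median of their list are named here. Irf8 had 2, both in WT, at -43.8 kb (5.52) and 58.9 kb (4.77). Irf4 had 3 in WT (-143.5, -78.4 and -49.6 kb, each 5.06), 3 in WTLPS (-26.0 kb with 5.52, 9.8 kb in an Irf4 intron with 5.46, and 62.0 kb with 5.01), 1 in KO (33.1 kb, 5.96) and 2 in KOLPS (-80.4 kb, 6.11, and 38.8 kb, 5.55). Some of these lay within 500 bp of a site called in all 4 conditions. Examples are -49.6 kb, beside the -47.2 kb site, and 38.8 kb, beside a site at 37.6 kb. The 38.8 kb site had p65 in WTLPS. No WTLPS H3K27ac peak overlapped that p65 peak, but one at 39.2 kb (4.55) began just beyond its end.

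Joining H3K27ac peaks less than 12.5 kb apart gave 1 domain over each start site. The Irf4 domain was 208 kb long in WT (rank 19 of 15472 by length), 270 kb in WTLPS (rank 11 of 15336), 165 kb in KO (rank 15 of 15530) and 52.1 kb in KOLPS (rank 452 of 14896). The shorter domain in KOLPS ended at a gap upstream, and of the 106 KOLPS peaks in the window 61 lay upstream of that domain, 22 in it and 23 downstream. At Irf8 the domain was 84.5, 80.9, 95.6 and 81.8 kb long, with ranks of 256, 274, 96 and 166.

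Enhancers of Irf8 are known from other studies by their distance, and each was looked for within 2 kb. At -50 kb H3K27ac was called in all 4 conditions (18.9, 12.3, 24.6 and 12.8), as were H3K4me1 (3.11, 3.08, 2.70 and 2.87) and H3K4me3 (7.62, 6.50, 7.72 and 4.23), with SMC1 in WT, WTLPS and KO and p65 in WTLPS. At 32 kb H3K4me1 alone was called, in all 4 conditions (3.22, 3.03, 3.14 and 2.66), without H3K27ac, STAT5, p65 or SMC1. The 41 kb position held H3K4me1 in WTLPS (2.83) and H3K27me3 in WT (2.96). At 56 kb H3K4me1 was called in WT (2.46), WTLPS (2.26) and KO (2.36), and H3K27ac (3.78) and SMC1 (4.95) in WT alone. Of these 4 positions, acetylation in all conditions was thus a property of -50 kb.

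H3K4me1 was broader at Irf4 than at Irf8. It covered 191, 196, 177 and 122 kb of the Irf4 window, listed as WT, WTLPS, KO, KOLPS, and 77.5, 86.9, 70.3 and 34.0 kb of the Irf8 window. KOLPS had the shortest coverage at both, and the shortest list, with 79120 peaks. Of WT peaks, 17 of 24 at Irf8, 70.8% (50.8 to 85.1%), and 30 of 36 at Irf4, 83.3% (68.1 to 92.1%), were overlapped in KO, against 74.4%. For WTLPS and KOLPS the shares were 50% (29.9 to 70.1%) and 75% (57.9 to 86.7%), against 58.4%, and for WTLPS and WT 90% (69.9 to 97.2%) and 96.9% (84.3 to 99.4%), against 81.7%.

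H3K4me3 away from the promoters of Irf8 and Irf4 marked Gins2, Cox4i1 and Dusp22 and a few intragenic places. At Irf8 6 of 7 WT peaks were overlapped in KO and at Irf4 3 of 5, against 79.6%. For WTLPS and KOLPS it was 6 of 8 and 4 of 4, against 73.4%, and for WTLPS and WT 8 of 8 and 3 of 4, against 86.1%. A downstream peak in an Exoc2 intron at 85.1 kb from Irf4 had a fold of 10.3, 6.85, 6.04 and 4.70 in WT, WTLPS, KO and KOLPS.

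H3K27me3 near Irf8 was called at 25 sites, of which 10 lay beyond 100 kb downstream and 7 upstream between -113.3 and -95.9 kb, in introns of 1190005I06Rik. The upstream sites held 3 of the 11 WT and 3 of the 9 WTLPS peaks. Sites at 104.2 kb (folds 3.61, 3.88, 3.32 and 3.77 in WT, WTLPS, KO and KOLPS) and 146.0 kb (3.79, 4.73, 3.83 and 4.26) were called in every condition, and no other site was. In KO alone 10 further sites were called, 7 of them beyond 100 kb, beside 6 in WT alone and 3 in WTLPS alone. The share of H3K27me3 peaks called in KO alone was not computed for the whole list. Of WT peaks 5 of 11 at Irf8 and 0 of 2 at Irf4 were overlapped in KO, against 52.5%, 3 of 9 and 0 of 1 for WTLPS and KOLPS, against 23.1%, and 4 of 9 and 0 of 1 for WTLPS and WT, against 70.3%.

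**Figure D5:**
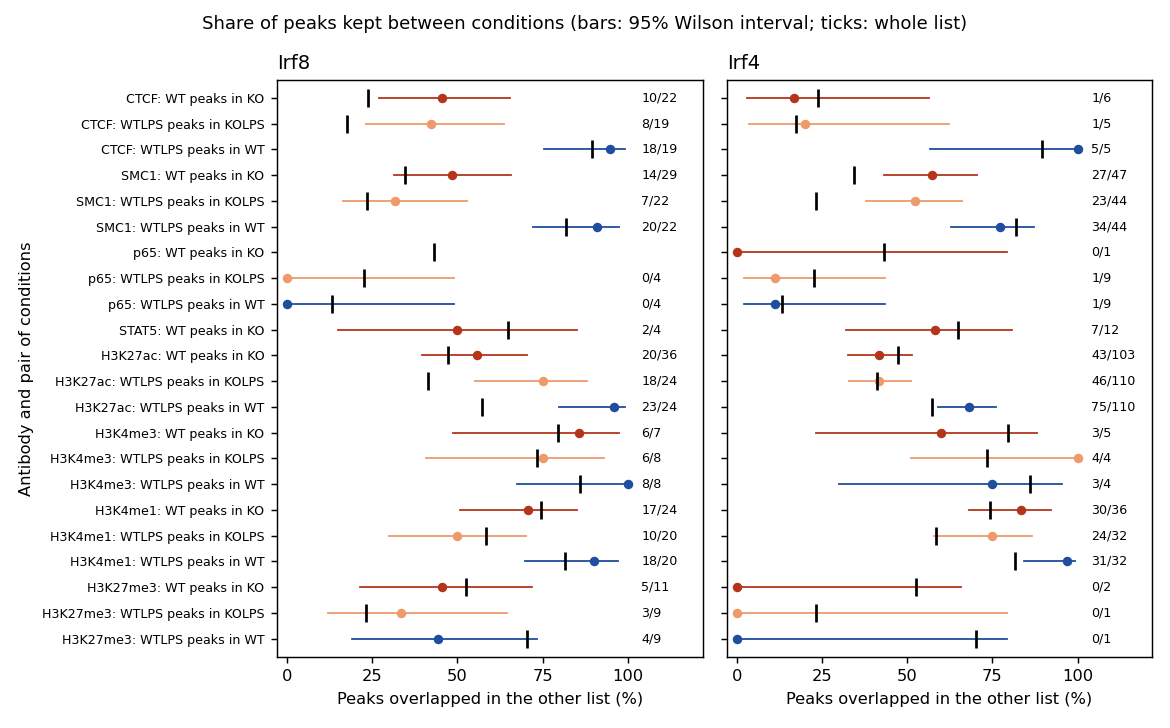
Percent of the first list's peaks at Irf8 (left) and Irf4 (right) that a peak of the second list overlapped, with 95% Wilson intervals, the counts at the right margin and black ticks for the whole list. CTCF at Irf8, SMC1 at Irf4 and H3K27ac with LPS at Irf8 lie above their ticks, and most other intervals include them.

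Other IRF genes examined had fewer STAT5 sites than Irf4. These 6 genes had 2 to 4 WT STAT5 peaks within 150 kb, where Irf4 had 12 and Irf8 4, and 0 to 4 WTLPS p65 peaks. Irf1, an interferon-induced member, had 4 p65 and 2 STAT5 peaks, and Irf2, which opposes it on shared sites, 3 and 4. In SMC1, Irf2 was close to Irf4 with 44 WT peaks against 47. In H3K27ac it was close without LPS, with 96 against 103 in WT and 82 against 81 in KO. With LPS it had fewer, 66 against 110 in WTLPS and 70 against 106 in KOLPS. Of the 6, 3 carried promoter p65 in WTLPS, against 2.86% of all genes, 3 a STAT5 peak there in WT, against 4.08%, and all 6 an H3K4me3 peak in each condition.

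Among 15 genes of partner and lineage factors, 3 were like Irf4 in STAT5 sites. Batf3, the partner of IRF8 in cDC1, had 13 in WT and 8 in KO, Bcl6, a repressor, 12 and 8, and Ikzf1, which encodes Ikaros, 11 and 8. The median of the 15 was 3 in WT and 2 in KO. In p65 peaks of WTLPS, Zeb2, a repressor that acts in myeloid differentiation, had 9 as Irf4 did, and the median was 3. All 15 had a p65 peak within 150 kb in WTLPS, against 43.2% of all genes, and 0 at the promoter. Spi1, which encodes PU.1, had 3 p65 peaks in WTLPS and 3 in KOLPS, where Irf4 had 9 and 1. Dense SMC1 and H3K27ac were also seen at Batf3, with 48 WT SMC1 peaks against 47 at Irf4. Its H3K27ac peaks numbered 81 in WT and 109 in KO, against 103 and 81 at Irf4.

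By the counts of all 30 lists, the genes most like Irf4 were Cd44, an adhesion receptor (Pearson's r = 0.979 on log2 counts over 30 lists), Gsap (0.967) and Tnfsf8, the CD30 ligand (0.967), where the median gene had 0.452. For Irf8 they were Cd300ld2 (0.976), Pcna, the sliding clamp of DNA replication (0.975), and its neighbour Tmem230 (0.974), where the median was 0.769. Irf8 and Irf4 had 0.73 with each other. These r describe counts that share libraries and list lengths.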

How the data were processed

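The 34 samples comprise 30 ChIP libraries with a peak list each and 4 inputs without one, which were not analysed here. Per the submitters' processing notes, BWA 0.7.12, Picard 1.77, MACS2 2.1.2 and deepTools 3.1.3 were used with mm10. The authors deposited each peak with its fold enrichment over local background and its −log10 p-value and −log10 q-value, and for narrow lists a summit. H3K27me3 and H3K4me1 lists are broad, so their values are averages over a region. The methods say that peaks were called for each replicate, and the study's reporting summary that replicates were merged, so whether a list holds 1 replicate or merged ones is open. The methods also name other tool versions than these notes. The STAT5 antibody is named by different catalogue numbers in the labels and the methods, and H3K4me1 peak names carry another supplier's mark.

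Both genes and all lists of genes were chosen with earlier results of these data known. Peaks within 150 kb of each start site were taken with Python 3.11.15 (numpy 2.4.6, pandas 2.3.3, scipy 1.17.1). Peaks were matched by at least 1 bp, and promoters spanned 2.5 kb to either side. The read-through gene model Gm20388 was left out. One gene of the comparison lists is not reported here. Background coverage was solved from fold and −log10 p. With 1 list per antibody and condition, no test was made, and 95% Wilson intervals cover counting error only. Every p65 and STAT5 site is named, as are all WT CTCF and SMC1 sites, the 5 CTCF, SMC1 and H3K27ac peaks of highest fold, and acetylated sites of 1 condition above the median of their list. The scripts were tested on simulated data. Alternatives were another overlap, peaks above the median of each list, other windows, another start site and coverage thinned to that of the other library.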

Additional observations from a re-analysis of the deposited data

How the results depend on the processing

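No replicate could be left out and no paired analysis was possible because each antibody and condition has 1 list. When peaks were thinned to the coverage of the other library, all 25 shares that could be computed stayed within their intervals. Another start site left the totals at 474 peaks for Irf8 and 764 for Irf4, and a window of 200 kb gave 564 and 981. Requiring 50% of a peak to be covered gave, at Irf8, CTCF 4.55% (WT to KO) and 0% (WTLPS to KOLPS), SMC1 13.6% (LPS), H3K27ac 27.8% and 16.7%, and H3K4me1 15% (LPS) and 65% (WTLPS to WT). In that order the whole lists gave 5.64%, 2.91%, 13.9%, 25.2%, 16.2%, 28.3% and 66.7%. At Irf4 it gave SMC1 38.3% and 29.5%, H3K27ac 12.6%, 9.09% and 46.4% (WTLPS to WT), and H3K4me1 52.8% and 28.1%. Here the whole lists gave 26.3% and 13.9%, then 25.2%, 16.2% and 41.1%, then 56.6% and 28.3%. Counting a peak within 500 bp gave H3K4me3 100% in both comparisons of genotypes at Irf8 and 100% for WTLPS to WT at Irf4, and H3K27ac 54.4%, 60.9% and 79.1% at Irf4. The whole lists gave 85.8%, 80.1% and 92.1% for H3K4me3 and 60.2%, 54% and 68% for H3K27ac. Among peaks above the median of each list, Irf8 gave CTCF 23.1% (LPS) and 100% (WTLPS to WT), SMC1 21.4%, STAT5 0%, H3K4me3 100% and 100%, and H3K27me3 75% and 100% (WTLPS to WT). In the same order the whole lists gave 19.9%, 96.6%, 32.2%, 70.8%, 96.3%, 88.5%, 49.3% and 67.2%. Irf4 gave SMC1 71.4%, p65 0% (WTLPS to WT), STAT5 100%, and H3K4me3 50% (LPS) and 100% (WTLPS to WT), against 32.2%, 13.7%, 70.8%, 88.5% and 97.7%. In a window of 100 kb, H3K27me3 at Irf8 gave 0% with LPS and 0% for WTLPS to WT, CTCF at Irf4 0% and 0%, p65 at Irf4 0%, and the totals were 394 for Irf8 and 493 for Irf4. The window leaves the whole lists at 23.1% and 70.3% for H3K27me3, 23.7% and 17.5% for CTCF, and 22.7% for p65 with LPS. The smaller window and the upper ranks hold fewer peaks, down to 1, and other causes were not tested. With 100 bp around summits, GAS lay at 7 of 12 WT and 3 of 7 KO STAT5 peaks of Irf4, and the CTCF core at 7 of 8 KOLPS peaks of Irf8. The longer GAS spacer and the κB mismatch were chosen after seeing the data. List lengths and coverage limit every count, and an uncalled peak is not an absent protein.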
